A study of Homo sapiens with 14 samples.

Results

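The 40 genes described here encode the machinery of mitosis: the kinases and cyclins of mitotic entry, chromosome and spindle proteins, the kinetochore, the spindle checkpoint, the ubiquitin enzymes of anaphase and the proteins of the midzone and cytokinesis. They were chosen as a named list, without a threshold on any measured value but with earlier results of these data known. All 40 were found among the 57904 features of the knockdown table, the 57905 of the dTAG tables and the 20243 of the R219S table. RNA was sequenced from 22Rv1, a human cell line from prostate cancer, in 14 libraries that fall into 7 groups of 2. FOXA1, the factor perturbed throughout, is a pioneer transcription factor that opens chromatin at prostate enhancers. The series asks how pioneer factors direct cohesin loading, and the RNA libraries give the transcript changes that accompany loss or mutation of FOXA1.

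The knockdown pair compared cells that received a lentivirus with a control hairpin (shCtrl) and cells that received a lentivirus with a hairpin against FOXA1 (shFOXA1), both otherwise WT. The titles of the shCtrl libraries read 22Rv2, while their cell line label reads 22Rv1. The other 5 groups share the FOXA1_dTAG genotype, a FOXA1 fusion that a small-molecule degrader marks for destruction: WT FOXA1_dTAG cells at 0 h, 1 h and 24 h, a separate WT FOXA1_dTAG group and a group labelled R219 mutation with FOXA1_dTAG, titled R219S. The treatment text covers dTAG and DMSO for all 5 of these groups together, and does not say which agent the WT and R219S libraries received or whether each line is 1 clone. The labels do not say whether the 2 libraries of a group came from separate cultures, so p-values measure the spread between these libraries, which may be technical.

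Mitotic genes are switched on together late in the cell cycle. Their promoters often carry a CHR element, bound by the MuvB complex, and CCAAT boxes, bound by NF-Y. MuvB acts with the repressors of the DREAM complex in resting cells, and with B-MYB (MYBL2) and FOXM1 in dividing cells. Entry is driven by CDK1 with cyclins A and B, the spindle is then built and attached to kinetochores, the checkpoint holds the anaphase-promoting complex until attachment is complete, and the midzone guides the furrow that separates the daughter cells.

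RefSeq promoter windows, from 250 bases before to 50 bases after a transcript start on GRCh38.p14, were at hand for 34 of the 40 genes. In these windows 26 of 34 genes (76.5%) held a CHR match, against 19.5% of the 27305 genes in the promoter table. CCAAT was present for 28 of 34 (82.4%) against 39.7%, and both motifs for 22 of 34 (64.7%) against 7.85%. Among 81 other mitotic genes with windows, 50.6% held a CHR match, 67.9% CCAAT and 37.0% both. Among 34 DNA replication genes with windows, 2 (5.88%) held a CHR match and 20 (58.8%) CCAAT. The CHR was searched as TTTGAA or TTCGAA and the CCAAT box as CCAAT, on both strands, so TTCAAA and ATTGG are the same motifs read from the other strand. A match is a description of letters and not evidence of binding. The 140 bases before the transcript start are shown, 5′ to 3′ on the gene's own strand, with the motif letters in capitals. They are given for a pair of entry kinase genes and a phosphatase gene (CDK1, PLK1, CDC25C). Beside them stand the 3 genes that departed most often from the rest in the comparisons (ASPM, CENPA, UBE2S). Whether the motifs bear on the changes was not tested. Where a gene had several windows, the one with most motif letters in this stretch was taken.
CDK1: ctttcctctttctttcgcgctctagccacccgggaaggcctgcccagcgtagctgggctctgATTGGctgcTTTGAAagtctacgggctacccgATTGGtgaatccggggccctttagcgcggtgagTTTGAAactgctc
CDC25C: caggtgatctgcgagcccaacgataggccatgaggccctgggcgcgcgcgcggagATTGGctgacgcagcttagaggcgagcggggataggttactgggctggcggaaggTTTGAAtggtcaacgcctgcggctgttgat
PLK1: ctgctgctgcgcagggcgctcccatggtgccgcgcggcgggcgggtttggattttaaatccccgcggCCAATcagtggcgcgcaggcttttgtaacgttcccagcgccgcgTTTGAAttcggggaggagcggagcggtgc
ASPM: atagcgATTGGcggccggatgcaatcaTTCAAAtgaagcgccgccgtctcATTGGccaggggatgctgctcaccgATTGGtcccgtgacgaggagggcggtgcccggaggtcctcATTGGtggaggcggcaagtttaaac
CENPA: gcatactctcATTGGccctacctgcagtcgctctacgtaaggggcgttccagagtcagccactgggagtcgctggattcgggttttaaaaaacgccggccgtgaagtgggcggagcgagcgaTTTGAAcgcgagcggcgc
UBE2S: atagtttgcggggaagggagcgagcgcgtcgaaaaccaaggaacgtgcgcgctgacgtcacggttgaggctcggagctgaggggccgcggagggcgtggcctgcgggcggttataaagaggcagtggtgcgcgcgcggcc
These stretches lie at chr10:60778338-60778477 on the plus strand, chr5:138331805-138331944 on the minus strand, chr16:23678749-23678888 on the plus strand, chr1:197146670-197146809 on the minus strand, chr2:26785916-26786055 on the plus strand and chr19:55407789-55407928 on the minus strand, each upstream of the transcript start. CDK1 shows 2 CHR and 2 CCAAT matches, CDC25C and PLK1 show 1 of each, ASPM shows 1 CHR and 4 CCAAT matches, and CENPA shows 1 of each. The UBE2S stretch holds 0 matches of either motif, while its full window, used for the shares above, holds a CCAAT match at -191 from the start.

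Library totals ran from 21560090 to 38465155 counts, and the lowest count of any of the 40 genes in any library was 261. Levels are given as counts-per-million (CPM) after TMM scaling, separately for the knockdown, dTAG and R219S tables, so levels are compared within a table only. FOXA1 itself was at 402 and 435 CPM in shCtrl and 299 and 305 in shFOXA1. It was at 171 and 168 CPM at 0 h, 170.1 and 168 at 1 h and 203 and 195 at 24 h, where the degrader acts on the protein and the transcript checks nothing. The WT and R219S libraries had 1019 and 1032 and 703 and 681 CPM. The shFOXA1 pair was the least alike of the 7, with a chi-square of 11.8 per degree of freedom over genes against 2.04 to 4.04 in the other groups. The luminal genes HOXB13 and KRT8 were present in all groups, and the summed endothelial and leukocyte markers stayed under 1 CPM. KLK3, the gene of prostate-specific antigen, was at 3.596 to 3.697 CPM in R219S against 20.1 to 21.9 in WT, at 9.44 to 11.1 in shCtrl against 14.0 to 21.2 in shFOXA1, and between 142 and 182.5 in the dTAG libraries, and its part in the results was not tested. Of 6 fibroblast markers, LUM, DCN and COL3A1 were higher in R219S than in WT. The list summed to 215 to 224 CPM in WT and 509 to 520 in R219S. Most of that difference was COL3A1, at 5.86 to 7.03 CPM in WT and 277 to 281 in R219S. In the same order DCN was at 19.93 to 21.24 and 38.06 to 38.65 CPM, and LUM at 163.9 to 170.2 and 180.3 to 186.4. COL1A1 went the other way, from 25.0 to 25.16 CPM in WT to 13.54 in R219S. COL1A2 was at 0 in both groups, and PDGFRB was under 1 CPM. In the dTAG table the same list summed to 23.0 to 24.9 CPM in all 6 libraries, and in the knockdown table to 19.1 to 20.7 CPM in shCtrl and 24.3 to 31.2 in shFOXA1.

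The mitotic genes fell together in 3 of the 4 comparisons and not at 1 h. Genes were called where edgeR's quasi-likelihood p, adjusted by Benjamini and Hochberg's method across the whole table, was under 0.05. In shFOXA1 39 of 40 were called lower and 0 higher, where 12.3% of all 19128 genes tested were called lower and 11.3% higher. After 24 h of depletion 38 were lower and 0 higher, against 24.8% and 22.1% of all genes. In R219S 36 were lower and 1 higher, against 31.6% and 30.5%. After 1 h 4 were lower and 4 higher, against 9.12% and 10.7% of all genes, a share of members near the background. The 2 groups did not overlap for 40 of the 40 genes in the knockdown (63.4% of all genes), 24 at 1 h (56.4%), 38 at 24 h (70.8%) and 38 in R219S (79.4%). Bulk libraries cannot tell fewer dividing cells apart from less of each transcript per dividing cell.

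The size of the fall differed between the perturbations. The median log2 fold change of the 40 genes was -0.44 in shFOXA1, 0.02 at 1 h, -0.74 at 24 h and -0.27 in R219S, while the median over all genes tested lay between 0.00 and 0.01 in each. Summed over the 40 genes, shCtrl libraries held 5416 and 5735 CPM and shFOXA1 libraries 4360 and 3986. The dTAG sums were 2802 and 2771 CPM at 0 h, 2799 and 2863 at 1 h, and 1753 and 1797 at 24 h. WT sums were 4511 and 4469 CPM and R219S sums 3673 and 3729. The summed level was thus 0.748 times its control in shFOXA1, 1.02 times at 1 h, 0.637 times at 24 h and 0.824 times in R219S. Of the 40 genes, 33 were called lower in each of shFOXA1, 24 h and R219S. The other 7 were CCNB1, ASPM, CENPA, CENPE, BUB3, TTK and UBE2S, each of which missed the call in at least 1 of them or, for ASPM in R219S, rose.

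**Figure D1:**
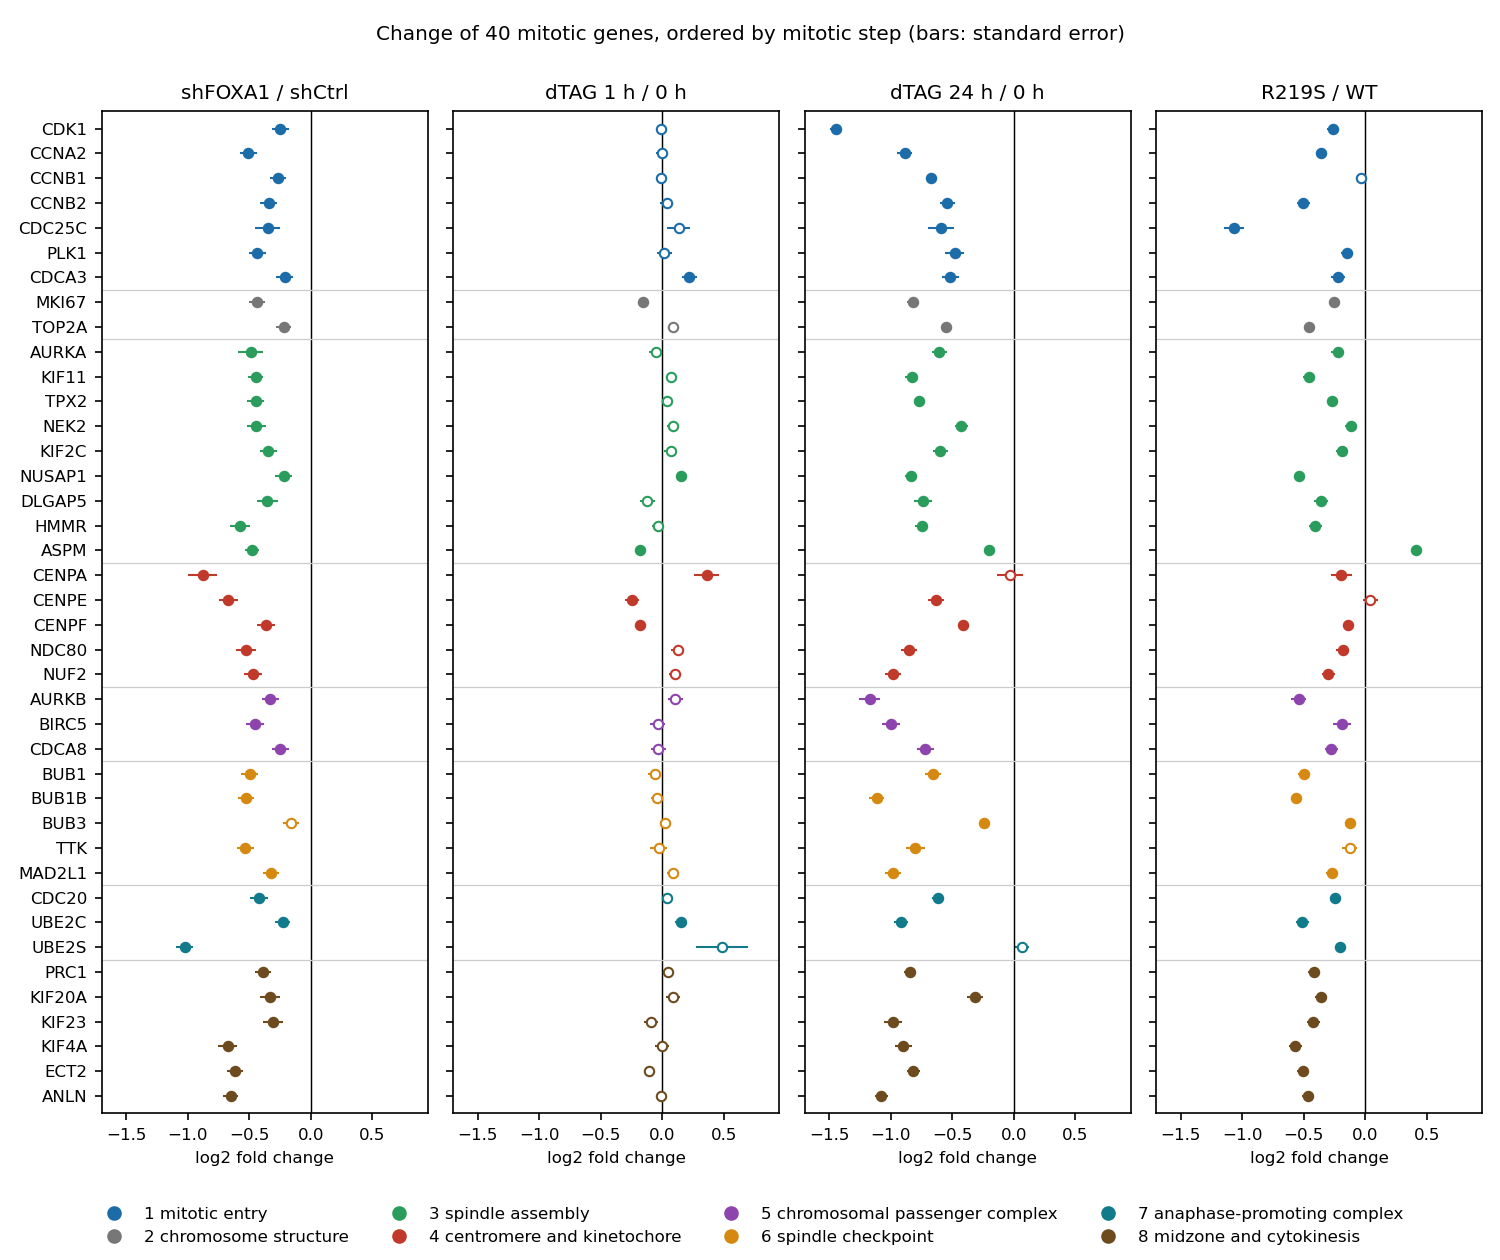
Log2 fold change (x axis) of each of the 40 genes (y axis, grouped and coloured by mitotic step) in the 4 main comparisons, with bars of 1 standard error and filled points for adjusted p under 0.05. At 24 h 38 of 40 points are filled and lie left of 0, with CDK1 farthest at -1.45, while at 1 h 8 points are filled, 4 on each side.

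No mitotic step stood outside the fall, and the steps overlapped in size. At 24 h the median log2 fold change was -0.9985 for the 3 chromosomal passenger genes, -0.87 for the 6 midzone and cytokinesis genes, -0.80 for the 5 checkpoint genes and -0.74 for the 9 spindle assembly genes. It was -0.69 for the pair of chromosome structure genes, -0.63 for the 5 centromere and kinetochore genes, -0.61 for the 3 genes of the anaphase-promoting complex and -0.59 for the 7 entry genes. The entry genes, with the smallest median, also held the largest single fall, since their changes ran from -1.45 to -0.48. In shFOXA1 the order was different: the kinetochore genes had the largest median fall, -0.53, followed by the midzone and cytokinesis genes at -0.50 and the checkpoint genes at -0.50, and the chromosome structure and passenger genes had the smallest, both at -0.33. In R219S the midzone and cytokinesis genes led with -0.44 (range -0.57 to -0.36), and the kinetochore genes came last with -0.18. These medians rest on 2 to 9 genes each and were not tested against each other.

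The 7 genes of mitotic entry (CDK1, CCNA2, CCNB1, CCNB2, CDC25C, PLK1 and CDCA3) were all lower in shFOXA1 and at 24 h, and 6 of 7 were lower in R219S. CDK1 encodes the kinase that triggers mitosis with its cyclins. CDK1 was at 149 and 161 CPM in shCtrl and 136 and 126 CPM in shFOXA1. At 0 h, 1 h and 24 h of depletion CDK1 stood at 133 and 136, 136 and 131, and 49.9 and 48.7 CPM. In WT CDK1 was at 123 and 126 CPM and in R219S at 98.7 and 108 CPM. Both 24 h libraries lay far under all 4 libraries of 0 h and 1 h, which overlapped each other. The log2 fold changes of CDK1 were -0.25 (SE 0.07, adjusted p = 0.0179) in shFOXA1, -1.45 (SE 0.05, adjusted p = 3.99e-22) at 24 h and -0.26 (SE 0.04, adjusted p = 2.00e-08) in R219S. CDK1 had the largest change of the 40 at 24 h and a small one in shFOXA1. Its shFOXA1 call was lost without shCtrl replicate 1 (adjusted p = 0.0503), without shCtrl replicate 2 (0.286) and with GC and length offsets (0.123). CCNB1, cyclin B1, activates CDK1 at entry. Control-hairpin cells gave 174 and 169.6 CPM of CCNB1 against 149 and 136 with the FOXA1 hairpin. Over the dTAG course CCNB1 went from 103 and 103 CPM at 0 h through 99.3 and 105 at 1 h to 62.8 and 66.4 at 24 h. WT libraries gave 118 and 109 CPM and R219S libraries 109 and 113. WT and R219S overlapped for this gene. Fitted log2 changes of CCNB1 were -0.27 (SE 0.06, adjusted p = 0.00968) in shFOXA1, -0.67 (SE 0.05, adjusted p = 1.25e-13) at 24 h and -0.03 (SE 0.04, adjusted p = 0.535) in R219S. The knockdown call of CCNB1 was lost without shCtrl replicate 1 (adjusted p = 0.113) or 2 (0.083).

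PLK1 is the polo-like kinase of entry, spindle and cytokinesis. With the hairpins, PLK1 measured 138 and 147 CPM (shCtrl) and 109.7 and 100.2 CPM (shFOXA1). With the degradable fusion, PLK1 measured 32.4 and 33.4 CPM at 0 h, 32.6 and 33.8 at 1 h and 25.9 and 21.2 at 24 h. With the WT and R219S fusions, PLK1 measured 70.1 and 70.5 and 64.1 and 62.9 CPM, in that order. PLK1 groups were separate in shFOXA1, at 24 h and in R219S. For PLK1, shFOXA1 gave a log2 fold change of -0.44 (SE 0.07, adjusted p = 7.59e-04), 24 h of depletion -0.48 (SE 0.08, adjusted p = 4.89e-06) and R219S -0.15 (SE 0.05, adjusted p = 0.00686). The R219S call of PLK1 was lost in DESeq2 (adjusted p = 0.0512) and without R219S replicate 2 (0.0598). CDC25C encodes the phosphatase that removes the inhibitory phosphates from CDK1. The shCtrl libraries held 21.2 and 22.8 CPM of CDC25C and the shFOXA1 libraries 18.01 and 16.4. CDC25C levels in the dTAG line were 11.98 and 12.2 CPM at 0 h, 13.95 and 12.5 at 1 h and 8.12 and 7.93 at 24 h. For CDC25C, WT cells had 28.4 and 28.1 CPM and R219S cells 14.8 and 12.5. Both R219S libraries lay far under both WT libraries, and CDC25C was the only gene of the 40 with a fitted fall past 2-fold in that comparison. On the log2 scale CDC25C changed by -0.35 (SE 0.10, adjusted p = 0.0225) with the hairpin, -0.59 (SE 0.11, adjusted p = 2.29e-05) after 24 h and -1.06 (SE 0.08, adjusted p = 5.59e-34) with R219S. The knockdown call of CDC25C was lost without shCtrl replicate 1 (adjusted p = 0.0714) or 2 (0.244). CCNA2 and CCNB2, which encode cyclins A2 and B2, fell in all 3 comparisons, with log2 changes of -0.51 and -0.34 in shFOXA1, -0.89 and -0.54 at 24 h, and -0.35 and -0.50 in R219S. CDCA3, a trigger of mitotic entry that promotes WEE1 degradation, lay just inside the threshold in shFOXA1, at -0.21 (SE 0.07, adjusted p = 0.0403), and was not called in DESeq2 (adjusted p = 0.0739) or without shCtrl replicate 1 (0.147), shCtrl replicate 2 (0.311) or shFOXA1 replicate 2 (0.0714).

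**Figure D2:**
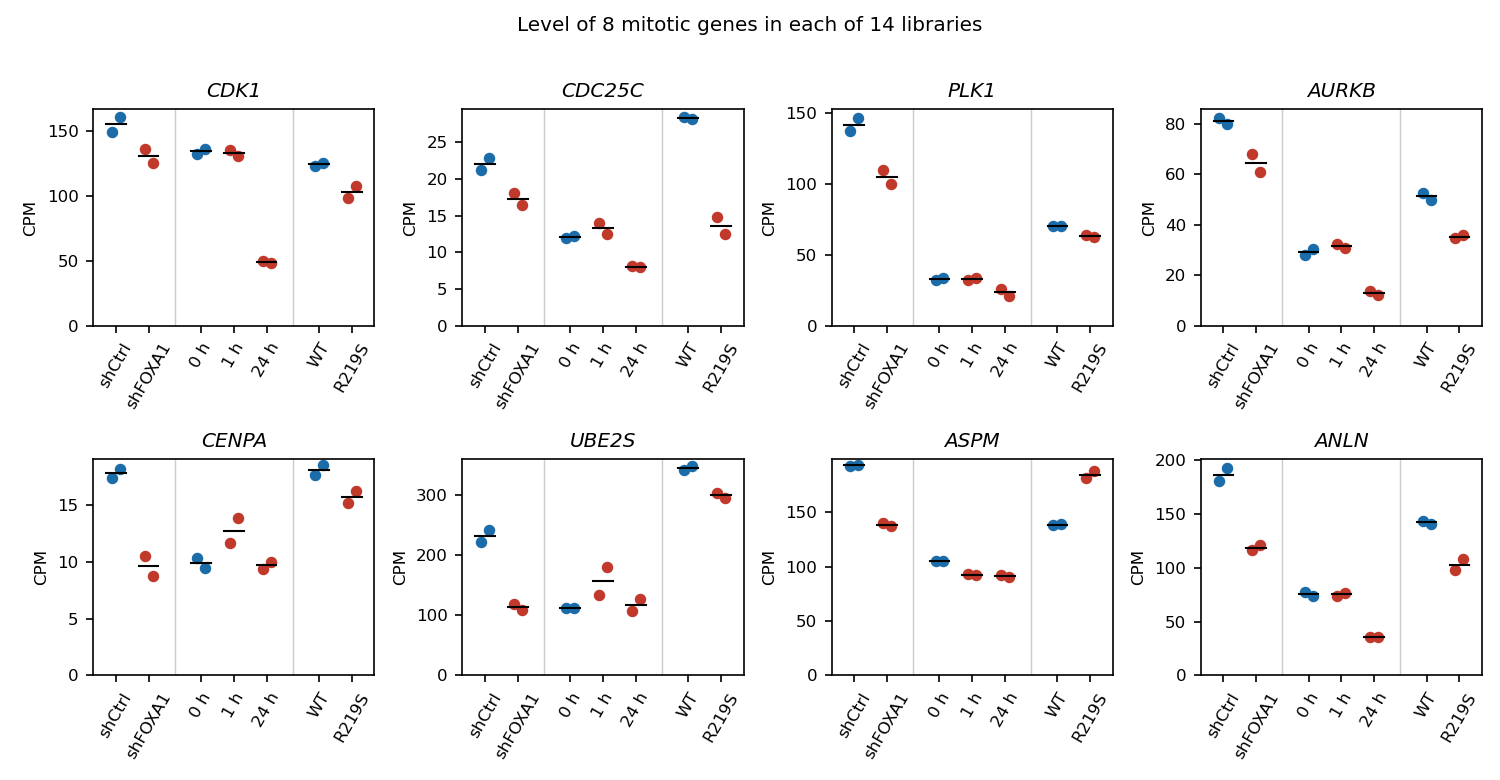
CPM (y axis, from 0) of 8 genes in each of the 14 libraries (points), with the group mean as a bar and controls in blue; vertical lines separate the 3 tables, whose levels are not comparable. CDK1 drops to 49.9 and 48.7 CPM at 24 h, CENPA and UBE2S do not, and ASPM is higher in R219S than in WT.

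Among genes of chromosome structure, MKI67 encodes Ki-67, the surfactant of mitotic chromosomes and a standard marker of proliferation, and TOP2A encodes the topoisomerase that untangles sister chromatids. The shCtrl libraries held 284 and 285 CPM of MKI67 and the shFOXA1 libraries 219 and 200.5. MKI67 levels in the dTAG line were 146 and 142 CPM at 0 h, 125 and 133 at 1 h and 84.4 and 78.7 at 24 h. For MKI67, WT cells had 262 and 267 CPM and R219S cells 224 and 220.2. MKI67 was thus lower in both libraries of shFOXA1, 24 h and R219S than in either control library. Fitted log2 changes of MKI67 were -0.44 (SE 0.06, adjusted p = 4.94e-04) in shFOXA1, -0.82 (SE 0.04, adjusted p = 3.36e-16) at 24 h and -0.25 (SE 0.04, adjusted p = 1.78e-09) in R219S. Control-hairpin cells gave 406 and 436 CPM of TOP2A against 373 and 349 with the FOXA1 hairpin. Over the dTAG course TOP2A went from 189 and 194 CPM at 0 h through 203 and 203 at 1 h to 128 and 134 at 24 h. WT libraries gave 336 and 334 CPM and R219S libraries 245 and 243. TOP2A separated the same groups. For TOP2A, shFOXA1 gave a log2 fold change of -0.22 (SE 0.06, adjusted p = 0.025), 24 h of depletion -0.55 (SE 0.04, adjusted p = 5.72e-13) and R219S -0.45 (SE 0.04, adjusted p = 1.44e-27). Its shFOXA1 call was lost without shCtrl replicate 1 (adjusted p = 0.0795) or 2 (0.359) and with GC and length offsets (0.135).

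All 9 spindle assembly genes were lower in shFOXA1 and at 24 h, and 8 of 9 were lower in R219S, where ASPM was higher. AURKA, the centrosomal Aurora kinase, and TPX2, its activator on the spindle, form the core of microtubule nucleation around chromosomes. With the hairpins, AURKA measured 68.4 and 73.9 CPM (shCtrl) and 56.4 and 44.8 CPM (shFOXA1). With the degradable fusion, AURKA measured 42.5 and 43.1 CPM at 0 h, 41.3 and 41.1 at 1 h and 28.7 and 27.5 at 24 h. With the WT and R219S fusions, AURKA measured 77.03 and 74.4 and 64.02 and 65.7 CPM, in that order. AURKA lay lower in each perturbed library of these 3 comparisons than in its controls. Against their own controls, log2 fold changes of AURKA came to -0.49 (SE 0.10, adjusted p = 0.00892) in shFOXA1, -0.61 (SE 0.06, adjusted p = 1.29e-09) at 24 h and -0.22 (SE 0.05, adjusted p = 2.52e-05) in R219S. Without shCtrl replicate 2 the knockdown call of AURKA was at adjusted p = 0.0504. TPX2 was at 219.5 and 243 CPM in shCtrl and 176 and 163 CPM in shFOXA1. In the dTAG line at 0 h, 1 h and 24 h TPX2 stood at 120.0 and 113, 119 and 120.3, and 68.7 and 68.2 CPM. In WT TPX2 was at 193 and 184 CPM and in R219S at 155 and 157 CPM. TPX2 was about as high at 1 h as at 0 h. On the log2 scale TPX2 changed by -0.45 (SE 0.07, adjusted p = 7.22e-04) with the hairpin, -0.77 (SE 0.05, adjusted p = 3.12e-15) after 24 h and -0.27 (SE 0.04, adjusted p = 4.71e-10) with R219S. KIF11 (Eg5) is the kinesin that pushes spindle poles apart. The shCtrl libraries held 138 and 148 CPM of KIF11 and the shFOXA1 libraries 106 and 104. KIF11 levels in the dTAG line were 72.5 and 72.1 CPM at 0 h, 75.2 and 76.99 at 1 h and 40.9 and 40.5 at 24 h. For KIF11, WT cells had 104 and 109 CPM and R219S cells 76.3 and 78.3. KIF11 at 1 h was slightly above 0 h in both libraries, without a call. Changes on the log2 scale of KIF11 were -0.45 (SE 0.06, adjusted p = 3.81e-04) in shFOXA1, -0.83 (SE 0.05, adjusted p = 1.12e-14) at 24 h and -0.45 (SE 0.05, adjusted p = 6.63e-20) in R219S.

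ASPM, a spindle pole protein, differed from the other spindle genes in R219S. With the hairpins, ASPM measured 193 and 194 CPM (shCtrl) and 139.9 and 138 CPM (shFOXA1). With the degradable fusion, ASPM measured 105 and 105 CPM at 0 h, 93.8 and 92.01 at 1 h and 92.3 and 90.8 at 24 h. With the WT and R219S fusions, ASPM measured 138 and 139.5 and 182 and 188 CPM, in that order. Both R219S libraries were above both WT libraries. On the log2 scale ASPM changed by -0.48 (SE 0.06, adjusted p = 1.63e-04) with the hairpin, -0.20 (SE 0.04, adjusted p = 2.51e-04) after 24 h and 0.41 (SE 0.04, adjusted p = 6.90e-21) with R219S. ASPM was the only gene of the 40 called higher in R219S, and its 24 h fall was the smallest of the 38 called. Its change from 1 h to 24 h was not called, at -0.02 (SE 0.04, adjusted p = 0.712). The changes of the other spindle genes not given by library (NUSAP1, DLGAP5, HMMR, NEK2 and KIF2C) ran from -0.83 to -0.42 at 24 h, from -0.58 to -0.22 in shFOXA1 and from -0.53 to -0.12 in R219S. NUSAP1, DLGAP5 and HMMR, which bind and bundle spindle microtubules, had log2 changes of -0.83, -0.74 and -0.75 at 24 h and -0.53, -0.36 and -0.41 in R219S. NEK2, the kinase that splits centrosomes, fell by 0.12 in R219S (adjusted p = 0.0215), and that call was lost in DESeq2 (0.0874) and without WT replicate 1 (0.146) or either R219S replicate (0.0814 and 0.0769). NUSAP1 had a small change in shFOXA1, -0.22 (SE 0.07, adjusted p = 0.0346), whose call was lost without shCtrl replicate 1 (0.0618) or 2 (0.429) and with GC and length offsets (0.116).

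At the centromere and kinetochore, CENPA is the histone H3 variant that marks the centromere, CENPE the kinesin that carries chromosomes to the spindle equator, and NDC80 the microtubule-binding subunit of the outer kinetochore. Control-hairpin cells gave 17.4 and 18.3 CPM of CENPA against 10.5 and 8.80 with the FOXA1 hairpin. Over the dTAG course CENPA went from 10.4 and 9.48 CPM at 0 h through 11.6 and 13.9 at 1 h to 9.37 and 10.03 at 24 h. WT libraries gave 17.7 and 18.6 CPM and R219S libraries 15.2 and 16.3. CENPA was clearly lower in shFOXA1, overlapped between 0 h and 24 h, and was highest of the dTAG groups at 1 h. Fitted log2 changes of CENPA were -0.88 (SE 0.12, adjusted p = 3.35e-04) in shFOXA1, -0.03 (SE 0.11, adjusted p = 0.839) at 24 h and -0.20 (SE 0.09, adjusted p = 0.0371) in R219S. The R219S call of CENPA was lost in DESeq2 (adjusted p = 0.179) and without R219S replicate 1 (0.200) or WT replicate 1 (0.0611) or 2 (0.173). With 333 to 468 counts in the libraries of 0 h and 1 h, CENPA was among the lowest of the 40 in counts. The shCtrl libraries held 77.8 and 81.9 CPM of CENPE and the shFOXA1 libraries 54.1 and 46.2. CENPE levels in the dTAG line were 38.6 and 37.3 CPM at 0 h, 31.5 and 32.5 at 1 h and 24.01 and 24.9 at 24 h. For CENPE, WT cells had 44.1 and 46.1 CPM and R219S cells 41.0015 and 51.2. The R219S libraries of CENPE straddled the WT libraries. Changes on the log2 scale of CENPE were -0.67 (SE 0.08, adjusted p = 1.58e-04) in shFOXA1, -0.63 (SE 0.07, adjusted p = 1.63e-09) at 24 h and 0.04 (SE 0.06, adjusted p = 0.556) in R219S. Without R219S replicate 1 CENPE was called higher in R219S, at 0.19 (adjusted p = 0.0127), and with GC and length offsets at 0.14 (0.0176). NDC80 was at 96.1 and 105 CPM in shCtrl and 75.2 and 64.1 CPM in shFOXA1. At 0 h, 1 h and 24 h of depletion NDC80 stood at 44.3 and 45.1, 50.01 and 47.4, and 23.6 and 25.9 CPM. In WT NDC80 was at 59.2 and 59.1 CPM and in R219S at 51.9 and 52.2 CPM. NDC80 groups were separate in all 3 of those comparisons. The log2 fold changes of NDC80 were -0.53 (SE 0.08, adjusted p = 0.00106) in shFOXA1, -0.85 (SE 0.07, adjusted p = 1.62e-12) at 24 h and -0.18 (SE 0.05, adjusted p = 0.0016) in R219S. NUF2, the partner of NDC80, fell with it, by -0.98 (SE 0.06, adjusted p = 1.40e-14) at 24 h, and CENPF, a large protein of the outer kinetochore, changed by -0.41 (SE 0.04, adjusted p = 3.15e-10).

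In the chromosomal passenger complex AURKB is the kinase, BIRC5 (survivin) and CDCA8 (borealin) target it to centromeres, and all 3 were lower in shFOXA1, at 24 h and in R219S. AURKB was at 82.1 and 79.7 CPM in shCtrl and 67.8 and 60.8 CPM in shFOXA1. In the dTAG line at 0 h, 1 h and 24 h AURKB stood at 28.1 and 30.3, 32.2 and 30.7, and 13.6 and 12.2 CPM. In WT AURKB was at 52.6 and 49.8 CPM and in R219S at 34.7 and 35.9 CPM. The 24 h libraries lay far under those of 0 h and 1 h. For AURKB, shFOXA1 gave a log2 fold change of -0.33 (SE 0.07, adjusted p = 0.00539), 24 h of depletion -1.17 (SE 0.08, adjusted p = 2.44e-13) and R219S -0.54 (SE 0.06, adjusted p = 2.47e-17). Without shCtrl replicate 1 the knockdown call of AURKB was lost (adjusted p = 0.0529). With the hairpins, BIRC5 measured 65.4 and 67.2 CPM (shCtrl) and 50.8 and 45.8 CPM (shFOXA1). With the degradable fusion, BIRC5 measured 34.1 and 33.7 CPM at 0 h, 33.5 and 32.6 at 1 h and 16.3 and 17.6 at 24 h. With the WT and R219S fusions, BIRC5 measured 30.1 and 29.7 and 25.7 and 26.8 CPM, in that order. BIRC5 was likewise lowest at 24 h, with no overlap. Changes on the log2 scale of BIRC5 were -0.46 (SE 0.07, adjusted p = 9.60e-04) in shFOXA1, -0.9985 (SE 0.07, adjusted p = 7.42e-13) at 24 h and -0.19 (SE 0.07, adjusted p = 0.0143) in R219S. The R219S call of BIRC5 was lost in DESeq2 (0.0975) and without WT replicate 1 (0.0883) or R219S replicate 1 (0.0932).

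In the spindle checkpoint BUB1 and TTK (MPS1) are the kinases that start the signal, and BUB1B (BUBR1), BUB3 and MAD2L1 (MAD2) are parts of the inhibitor that it produces. Control-hairpin cells gave 83.2 and 89.7 CPM of BUB1 against 63.9 and 58.5 with the FOXA1 hairpin. Over the dTAG course BUB1 went from 46.3 and 49.7 CPM at 0 h through 45.5 and 46.5 at 1 h to 29.4 and 31.5 at 24 h. WT libraries gave 103 and 96.8 CPM and R219S libraries 67.99 and 73.2. BUB1 was lower by a similar share in shFOXA1 and R219S. Against their own controls, log2 fold changes of BUB1 came to -0.50 (SE 0.07, adjusted p = 4.59e-04) in shFOXA1, -0.66 (SE 0.06, adjusted p = 2.06e-10) at 24 h and -0.50 (SE 0.05, adjusted p = 1.21e-22) in R219S. The shCtrl libraries held 60.9 and 59.9 CPM of TTK and the shFOXA1 libraries 43.3 and 40.2. TTK levels in the dTAG line were 25.5 and 25.3 CPM at 0 h, 23.4 and 26.4 at 1 h and 14.7 and 14.4 at 24 h. For TTK, WT cells had 40.4 and 41.1 CPM and R219S cells 35.02 and 39.4. TTK in R219S was below WT in both libraries, but the difference did not pass the test. Fitted log2 changes of TTK were -0.53 (SE 0.07, adjusted p = 3.09e-04) in shFOXA1, -0.80 (SE 0.08, adjusted p = 5.74e-10) at 24 h and -0.13 (SE 0.06, adjusted p = 0.0672) in R219S. It passed without R219S replicate 2 (adjusted p = 0.0105) and with GC and length offsets (0.00816). BUB3 was at 196 and 203 CPM in shCtrl and 184 and 173 CPM in shFOXA1. In the dTAG line at 0 h, 1 h and 24 h BUB3 stood at 136 and 138, 144 and 135, and 112 and 120.3 CPM. In WT BUB3 was at 157 and 154 CPM and in R219S at 144 and 141 CPM. BUB3, which also has roles in interphase, had the change of this step nearest to 0 in each of the 3 comparisons. Changes on the log2 scale of BUB3 were -0.16 (SE 0.06, adjusted p = 0.0782) in shFOXA1, -0.24 (SE 0.04, adjusted p = 2.28e-05) at 24 h and -0.12 (SE 0.04, adjusted p = 0.00672) in R219S. Without shFOXA1 replicate 1 the knockdown change of BUB3 was called (adjusted p = 0.0015), and without R219S replicate 2 its R219S call was lost (0.0929). BUB1B had log2 changes of -1.11 (SE 0.06, adjusted p = 3.91e-16) at 24 h and -0.56 (SE 0.05, adjusted p = 1.59e-28) in R219S, the third largest of the 40 in both.

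CDC20 activates the anaphase-promoting complex, UBE2C starts ubiquitin chains on its substrates and UBE2S extends them. With the hairpins, CDC20 measured 153 and 158 CPM (shCtrl) and 125 and 107 CPM (shFOXA1). With the degradable fusion, CDC20 measured 91.1 and 90.1 CPM at 0 h, 93.2 and 93.1 at 1 h and 58.8 and 59.5 at 24 h. With the WT and R219S fusions, CDC20 measured 182 and 172 and 152 and 148 CPM, in that order. CDC20 fell in every comparison but 1 h. On the log2 scale CDC20 changed by -0.42 (SE 0.07, adjusted p = 0.00194) with the hairpin, -0.61 (SE 0.05, adjusted p = 1.24e-12) after 24 h and -0.24 (SE 0.04, adjusted p = 3.70e-08) with R219S. The shCtrl libraries held 96.6 and 98.3 CPM of UBE2C and the shFOXA1 libraries 84.8 and 81.5. UBE2C levels in the dTAG line were 55.9 and 57.2 CPM at 0 h, 63.8 and 62.1 at 1 h and 31.2 and 28.7 at 24 h. For UBE2C, WT cells had 88.3 and 87.02 CPM and R219S cells 62.8 and 60.6. UBE2C separated its groups in all 4 main comparisons, with the 1 h libraries above 0 h. For UBE2C, shFOXA1 gave a log2 fold change of -0.23 (SE 0.06, adjusted p = 0.0187), 24 h of depletion -0.91 (SE 0.06, adjusted p = 3.19e-14) and R219S -0.51 (SE 0.05, adjusted p = 2.97e-22). The knockdown call of UBE2C was lost without shCtrl replicate 1 (adjusted p = 0.127) or 2 (0.213). Processed pseudogenes named for UBE2C held up to 10.0% of its counts in a dTAG library and up to 3.54% in a knockdown library. Those named for AURKA held up to 4.08% and 4.45% of its counts, in the same order. Reads shared with such pseudogenes could shift the levels of UBE2C and AURKA.

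UBE2S had another pattern than UBE2C. UBE2S was at 222 and 242 CPM in shCtrl and 119 and 109 CPM in shFOXA1. At 0 h, 1 h and 24 h of depletion UBE2S stood at 112 and 112, 133 and 181, and 108 and 127 CPM. In WT UBE2S was at 342 and 348 CPM and in R219S at 303 and 296 CPM. Both shFOXA1 libraries lay far under shCtrl, while 24 h overlapped 0 h. Changes on the log2 scale of UBE2S were -1.03 (SE 0.07, adjusted p = 3.87e-06) in shFOXA1, 0.07 (SE 0.05, adjusted p = 0.341) at 24 h and -0.20 (SE 0.04, adjusted p = 5.87e-07) in R219S. UBE2S thus had the largest fall of the 40 in shFOXA1 and no called change at 24 h. Without 24 h replicate 1 it was called higher at 24 h, at 0.18 (adjusted p = 0.00357), and without 24 h replicate 2 it was at -0.05 (0.494). The 2 libraries of 1 h lay apart from each other, both above 0 h, and the change at 1 h was 0.48 (SE 0.21, adjusted p = 0.329); it was called without either 1 h library, at 0.69 without replicate 1 and 0.25 without replicate 2.

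In the midzone and at cytokinesis, KIF20A and KIF23 are kinesins of the midzone, PRC1 bundles its microtubules, KIF4A sets its length, ECT2 activates RhoA at the furrow and ANLN (anillin) scaffolds the contractile ring. All 6 were lower in shFOXA1, at 24 h and in R219S. Control-hairpin cells gave 77.2 and 83.2 CPM of KIF20A against 68.8 and 58.8 with the FOXA1 hairpin. Over the dTAG course KIF20A went from 42.1 and 39.1 CPM at 0 h through 43.7 and 42.7 at 1 h to 32.8 and 32.4 at 24 h. WT libraries gave 84.1 and 80.0001 CPM and R219S libraries 65.7 and 62.9. KIF20A fell by nearly the same amount in the 3 comparisons. The log2 fold changes of KIF20A were -0.33 (SE 0.08, adjusted p = 0.0125) in shFOXA1, -0.32 (SE 0.06, adjusted p = 9.29e-05) at 24 h and -0.36 (SE 0.05, adjusted p = 1.00e-11) in R219S. Its knockdown call was lost without shCtrl replicate 2 (adjusted p = 0.136). With the hairpins, ECT2 measured 203 and 218 CPM (shCtrl) and 143 and 131 CPM (shFOXA1). With the degradable fusion, ECT2 measured 65.9 and 65.6 CPM at 0 h, 62.95 and 59.3 at 1 h and 36.4 and 38.2 at 24 h. With the WT and R219S fusions, ECT2 measured 128 and 129 and 85.5 and 94.8 CPM, in that order. ECT2 had separate groups in each of them. For ECT2, shFOXA1 gave a log2 fold change of -0.62 (SE 0.07, adjusted p = 7.85e-05), 24 h of depletion -0.82 (SE 0.05, adjusted p = 5.09e-14) and R219S -0.51 (SE 0.05, adjusted p = 6.43e-26). ANLN was at 180.3 and 193 CPM in shCtrl and 116 and 121 CPM in shFOXA1. In the dTAG line at 0 h, 1 h and 24 h ANLN stood at 77.2 and 74.2, 74.1 and 76.6, and 35.7 and 36.1 CPM. In WT ANLN was at 144 and 141 CPM and in R219S at 97.7 and 108 CPM. ANLN was lowest at 24 h, far from the other dTAG libraries. Against their own controls, log2 fold changes of ANLN came to -0.65 (SE 0.06, adjusted p = 3.84e-05) in shFOXA1, -1.08 (SE 0.05, adjusted p = 3.52e-17) at 24 h and -0.47 (SE 0.04, adjusted p = 3.09e-23) in R219S. KIF4A had the third largest fall in shFOXA1, -0.68 (SE 0.08, adjusted p = 9.67e-05), and the second largest in R219S, -0.57 (SE 0.05, adjusted p = 2.95e-23).

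Per kilobase of the longest protein-coding transcript of each gene, the 40 genes spanned about an order of magnitude in the control hairpin cells. The ranking depends on this choice of transcript, which the SD does not cover. Before division by length, shCtrl means were 232 CPM for UBE2S and 97.5 for UBE2C. UBE2C was highest with 106.6 ± 1.31 CPM per kilobase (SD, n = 2), followed by UBE2S with 91.1 ± 5.64 and CDC20 with 87.4 ± 2.11, so that 3 genes of the anaphase-promoting complex led, and UBE2S and CDC20 differed by less than the SD of UBE2S. CDK1 with 79.8 ± 4.30 and CCNB1 with 79.2 ± 1.43 did not differ beyond their spread. CENPE with 9.27 ± 0.333, CDC25C with 10.3 ± 0.530 and CENPA with 12.3 ± 0.407 were lowest.

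After 1 h 21 of the 40 values lay above 0 and 19 below. CENPA (0.36 (SE 0.10, adjusted p = 0.00684)), CDCA3 (0.22 (SE 0.06, adjusted p = 0.00253)), NUSAP1 (0.15 (SE 0.04, adjusted p = 0.0026)) and UBE2C (0.15 (SE 0.05, adjusted p = 0.0122)) were called higher. CENPE (-0.25 (SE 0.06, adjusted p = 9.92e-04)), CENPF (-0.18 (SE 0.03, adjusted p = 1.44e-05)), ASPM (-0.18 (SE 0.04, adjusted p = 2.25e-04)) and MKI67 (-0.16 (SE 0.04, adjusted p = 3.61e-04)) were called lower. The 4 genes called lower have the longest transcripts of the 40, with 8612 bases for CENPE, 10307 for CENPF, 10887 for ASPM and 12678 for MKI67. With offsets that take out what followed GC content and transcript length in each library, 0 of the 40 genes were lower and 9 (22.5%) higher at 1 h, against 6.36% and 6.86% of all genes in the same fit, and 13 of the 40 values lay below 0. The 4 long genes then stood at -0.14, -0.04, -0.03 and -0.03, with adjusted p from 0.118 to 0.666. Across the 40 genes the change at 1 h had Pearson's r of -0.57 and Spearman's rho of -0.53 with log2 transcript length. After the offsets r was -0.27 and rho was -0.16. The genes share the same 4 libraries and are not replicates. None of the 8 calls at 1 h held in every alternative. CENPA was not called in DESeq2 (0.0832), or without 0 h replicate 2 (0.0826) or 1 h replicate 2 (0.264). UBE2C was not called in DESeq2 (0.0943), or without 0 h replicate 1 (0.0584), 1 h replicate 1 (0.184) or 1 h replicate 2 (0.0627). CDCA3 missed without 0 h replicate 2 (0.110) and 1 h replicate 1 (0.0538), NUSAP1 without 0 h replicate 2 (0.118) and 1 h replicate 2 (0.0874), and MKI67 without 1 h replicate 1 (0.155). TOP2A (adjusted p = 0.0553) and NDC80 (0.088) lay just outside the threshold. With the offsets TOP2A was called higher, at 0.17 (adjusted p = 2.57e-05), and so was NDC80, at 0.15 (0.0341). BUB3, KIF11 and MAD2L1 also gained a call as higher with the offsets. The smallest values at 1 h were those of KIF4A, CCNA2 and ANLN, all between -0.01 and 0.00.

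**Figure D3:**
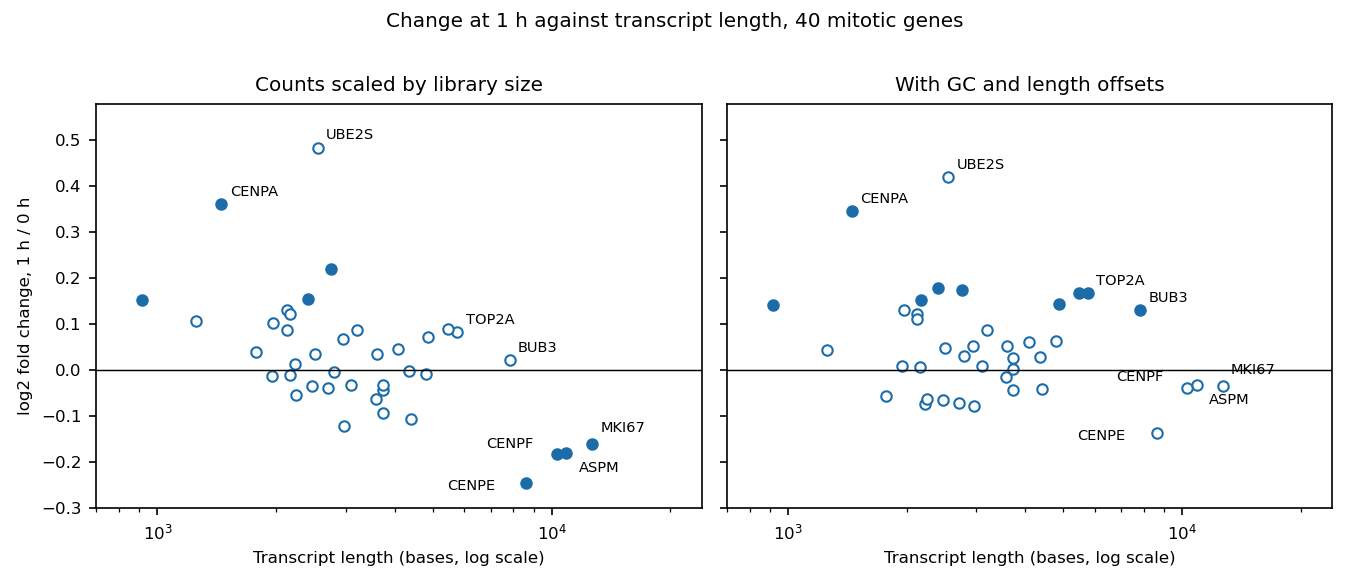
Log2 fold change at 1 h against 0 h (y axis) by transcript length in bases (log x axis) for the 40 genes, from counts scaled by library size (left) and with GC and length offsets (right), with filled points for adjusted p under 0.05. CENPE, CENPF, ASPM and MKI67 are the filled points below 0 on the left and are open on the right.

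From 1 h to 24 h 38 of the 40 genes fell and 0 rose, in a fit over the 6 dTAG libraries in which 24.5% of all genes were lower and 21.2% higher. This test uses 1 h as the control and not the 0 h libraries, although the 6 libraries share 1 estimate of spread. CDK1 had -1.44 (SE 0.04, adjusted p = 3.56e-31), AURKB -1.28 (SE 0.08, adjusted p = 3.50e-19) and NUF2 -1.09 (SE 0.06, adjusted p = 1.61e-21), the 3 largest. CENPA, which was not below 0 h at 24 h, was below 1 h, with -0.39 (SE 0.11, adjusted p = 0.00168), a call that was lost without 1 h replicate 2 (0.108). UBE2S was at -0.42 (SE 0.20, adjusted p = 0.207) and was not called, but it was called without 1 h replicate 1 (1.64e-08) or 2 (0.0305). CENPF (-0.23) and BUB3 (-0.26) had the smallest called falls.

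The fall after 24 h of depletion was larger than that of the hairpin for many of the genes, and the difference between both changes was tested in 1 fit over 8 libraries. The 2 experiments are separate tables, so what else differed between them cannot be told apart from the kind of FOXA1 loss. The hairpin lowered FOXA1 RNA only in part, with a log2 fold change of -0.47, and the RNA libraries do not show how much protein remained. The 24 h change was lower for 21 of 40 genes (13.2% of all genes) and higher for 3 (9.45%), with a median difference of -0.30. CDK1 differed by -1.19 (SE 0.08, adjusted p = 9.00e-10), AURKB by -0.83 (SE 0.11, adjusted p = 7.29e-06) and UBE2C by -0.67 (SE 0.08, adjusted p = 4.79e-06). In the other direction UBE2S differed by 1.10 (SE 0.10, adjusted p = 6.00e-07), CENPA by 0.86 (SE 0.16, adjusted p = 5.20e-04) and ASPM by 0.29 (SE 0.07, adjusted p = 0.00375). Across the 40 genes the changes in shFOXA1 and at 24 h had Pearson's r of -0.28 and Spearman's rho of 0.03, a description over genes from separate libraries. By step, 4 of 7 entry genes, 2 of 2 chromosome structure genes, 4 of 9 spindle genes, 2 of 5 kinetochore genes, 3 of 3 passenger genes, 2 of 5 checkpoint genes, 1 of 3 genes of the anaphase-promoting complex and 3 of 6 midzone and cytokinesis genes were called lower in this difference. The 3 called higher were 1 spindle, 1 kinetochore and 1 anaphase-promoting complex gene.

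The 24 h change was set against the R219S change in the same way, in a fit that called a larger share of all genes. In this difference 32 of 40 genes were lower (28.8% of all genes) and 2 higher (27%), with a median difference of -0.37. CDK1 led with -1.16 (SE 0.07, adjusted p = 5.86e-26), followed by BIRC5 with -0.79 (SE 0.10, adjusted p = 4.29e-10) and MAD2L1 with -0.69 (SE 0.08, adjusted p = 3.80e-12). CDC25C (0.50 (SE 0.14, adjusted p = 0.0012)) and UBE2S (0.30 (SE 0.06, adjusted p = 5.42e-05)) were the 2 genes called in the other direction. All 9 spindle assembly genes differed in the same direction, including ASPM, which rose in R219S. Across the 40 genes, the changes at 24 h and in R219S had r of 0.38 and rho of 0.47, and those in shFOXA1 and R219S r of -0.11 and rho of -0.07. The fibroblast marker sums of the R219S table, given above, differ between WT and R219S mostly through COL3A1, while COL1A1 goes the other way. FOXA1 RNA was also lower in R219S than in WT, with a log2 fold change of -0.57. The part of these markers and of the FOXA1 level in the R219S comparison was not tested.

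**Figure D4:**
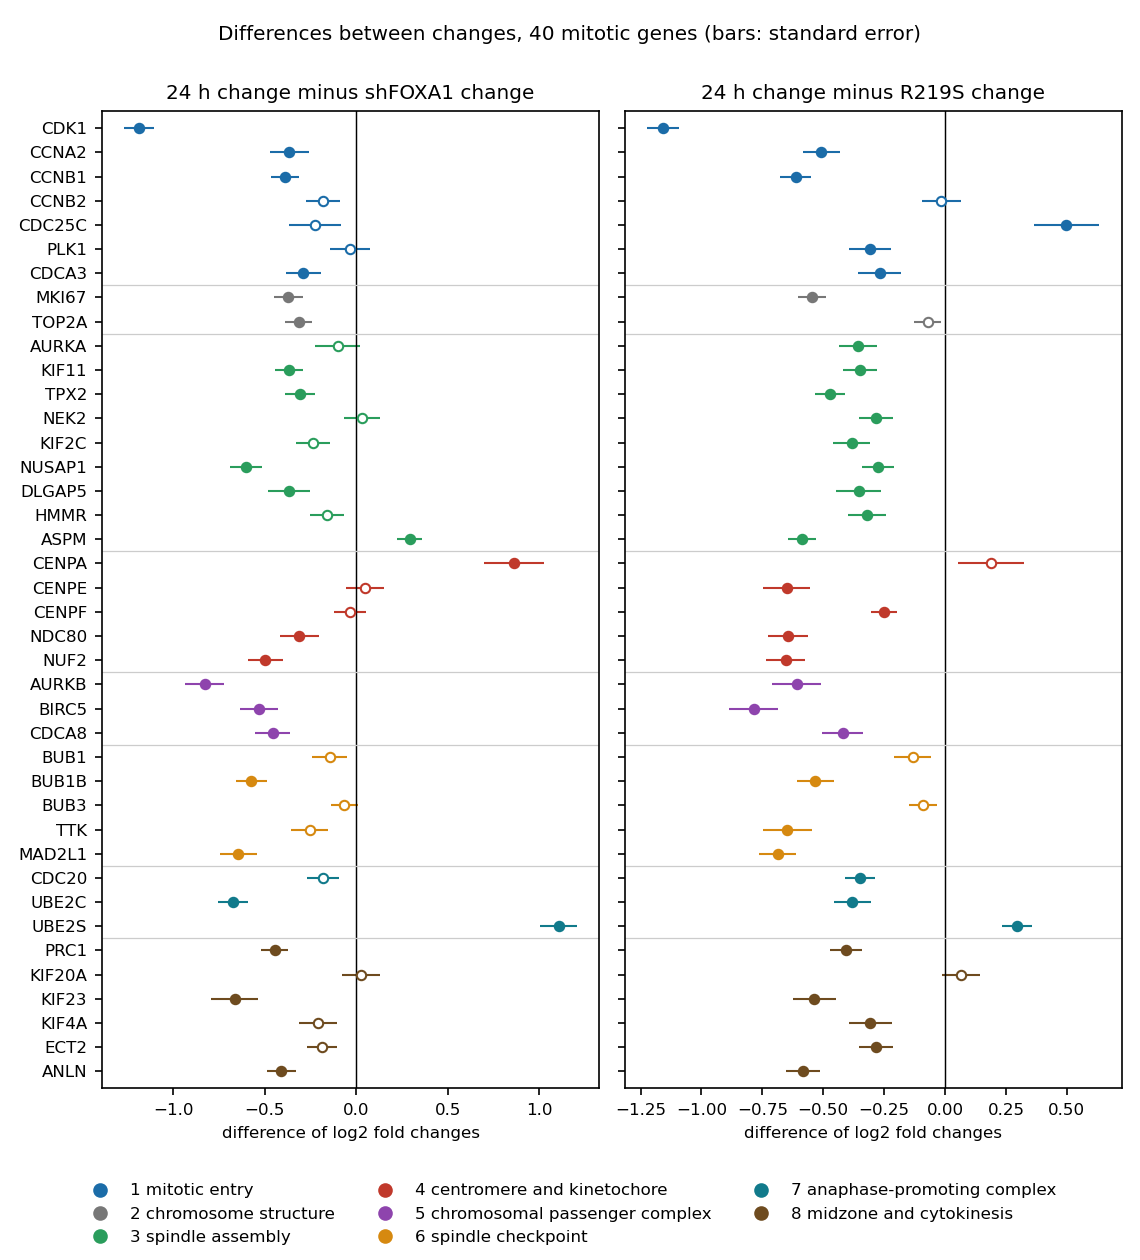
Difference of log2 fold changes (x axis) for the 40 genes (y axis, by mitotic step), the 24 h change minus the shFOXA1 change (left) and minus the R219S change (right), with bars of 1 standard error and filled points for adjusted p under 0.05. CDK1 lies farthest left in both panels, and UBE2S lies to the right in both.

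Other genes of the cell cycle were counted from lists by function, which were also chosen with earlier results of these data known. Of 95 further mitotic genes, 64 were lower and 1 higher in shFOXA1, 6 and 11 at 1 h, 81 and 8 at 24 h, and 57 and 16 in R219S. The shares lower were 67.4%, 6.32%, 85.3% and 60% in that order, against 12.3%, 9.12%, 24.8% and 31.6% of all genes, and the shares higher 1.05%, 11.6%, 8.42% and 16.8%, against 11.3%, 10.7%, 22.1% and 30.5%. The 1 h shares were thus near those of all genes. The largest falls at 24 h were those of CENPK (-2.03) and CENPM (-1.77), subunits of the inner kinetochore, and SKA1 (-1.68) of the outer kinetochore. In shFOXA1 they were SKA1 (-0.68), ARHGAP11A (-0.67) and MELK (-0.64). In R219S they were HJURP (-0.96), the chaperone that loads CENPA, with CKAP2 (-0.91) and CENPW (-0.88). At 1 h the largest were WEE1 (-0.40), the kinase that inhibits CDK1, and the phosphatases CDC25A (0.40) and CDC25B (0.28), which were higher.

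Of 14 regulators of mitotic transcription, 5 were lower and 2 higher in shFOXA1, 1 and 1 at 1 h, 9 and 3 at 24 h, and 5 and 3 in R219S. As shares of the list, 35.7%, 7.14%, 64.3% and 35.7% were lower and 14.3%, 7.14%, 21.4% and 21.4% higher. With 14 genes, the R219S and 1 h shares and the share higher at 24 h lay near those of all genes, given above. MYBL2 (B-MYB) fell in the 3 comparisons with a mitotic fall, with -0.52 (SE 0.07, adjusted p = 2.13e-04) in shFOXA1, -2.24 (SE 0.09, adjusted p = 1.02e-19) at 24 h and -0.51 (SE 0.05, adjusted p = 3.88e-23) in R219S. FOXM1 had -0.78 (SE 0.07, adjusted p = 2.20e-05), -0.94 (SE 0.06, adjusted p = 1.44e-14) and -0.28 (SE 0.05, adjusted p = 4.21e-09) in the same order. RBL1 (p107) had -0.44 in shFOXA1 and -1.02 at 24 h, and E2F4, a subunit of DREAM, was higher in R219S by 0.30. At 1 h the 2 called regulators were LIN37, a subunit of MuvB (0.41), and NFYA, a subunit of NF-Y (-0.16).

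DNA replication genes, which act earlier in the cell cycle, were set beside the mitotic genes. Of 39, 36 were lower and 0 higher in shFOXA1 with a median of -0.42, close to the -0.44 of the mitotic genes. At 24 h all 39 were lower, with a median of -1.46 against -0.74. In R219S 20 were lower and 4 higher, with a median of -0.14 against -0.27, and at 1 h 2 were lower and 5 higher. The shares lower, 92.3% in shFOXA1, 100% at 24 h and 51.3% in R219S, were above those of all genes, and the 1 h shares of 5.13% lower and 12.8% higher were near them. CLSPN (-2.59), CDC45 (-2.55) and MCM10 (-2.51), which act at the replication fork, fell furthest at 24 h. In R219S CCNE2 (-0.71), the S-phase cyclin E2, and RRM2 (-0.39) were lower and POLA1 (0.50) was higher. CCNE2 was also lower at 1 h, by -0.65 (SE 0.06, adjusted p = 1.42e-13). The difference between the mitotic and replication lists was not tested.

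Leaving out 1 control library changed the knockdown count most. Without shCtrl replicate 2, 24 of the 40 genes were called lower, and without shCtrl replicate 1, 30 were. All 40 kept a negative value in each of these fits. At 24 h 38 genes were called in every alternative run, in R219S 31 were, in shFOXA1 23 were, and at 1 h 0 were.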

How the data were processed

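RNA from 22Rv1 cells was measured in 14 libraries, 2 in each of 7 groups taken from the labels. The authors deposited raw counts per gene, whole numbers with no normalization. Per the submitters' processing notes, STAR, featureCounts, DESeq2 and hg19 were named; versions, annotation and strand setting are not given in the sources used here, so antisense reads could not be told apart. The 0 h counts were identical for all 57905 features of both dTAG tables, and 26 names of the R219S table read as dates. Per-sample columns not used numbered 0.

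The 4 main comparisons were each fitted in edgeR 4.0.16 (R 4.3.3) on the 4 libraries of the 2 groups, after filterByExpr and TMM scaling, with estimateDisp, robust glmQLFit and the quasi-likelihood F test. Calls were made at an adjusted p (Benjamini-Hochberg) under 0.05. Fold changes are edgeR's, and their approximate standard errors were obtained by dividing the size of the log2 change by the root of F. The 24 h and 1 h groups were compared in a fit of all 6 dTAG libraries, and interaction terms over 8 libraries tested differences between changes. Alternatives were DESeq2 1.42.0, RLE scaling, no filter, at least 1 CPM in 2 libraries, a replicate block, leaving out each library, and, in the main comparisons, GC and length offsets (natural splines with 5 degrees of freedom). GC content and length were those of the longest transcript of each gene in GENCODE 29, protein-coding where there was one. Promoters were taken from RefSeq (GRCh38.p14), matched by symbol. The fit was tested on simulated data. Members and lists were chosen with earlier results of these data known. Values in every library are given for 23 lead genes. Beside them, the text names the called members with the 3 largest changes, the 3 smallest changes, those called against most others, the 2 nearest to the threshold on each side, and the 3 largest changes of each other list. NUF2 at 24 h, CENPF, CCNA2, CCNB2, DLGAP5, HMMR and KIF2C were added after their values were seen. KIF4A falls under the rule of the 3 largest changes in shFOXA1 and R219S.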

Additional observations from a re-analysis of the deposited data

Results flagged for a closer look

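The change at 24 h of depletion and the change in shFOXA1 differed, by the interaction test of edgeR, for 24 of the 40 mitotic genes. The difference, 24 h change minus shFOXA1 change on the log2 scale, was -1.19 for CDK1, -0.83 for AURKB and -0.67 for UBE2C, and it was 1.10 for UBE2S, 0.86 for CENPA and 0.29 for ASPM. All 6 of these calls held in every alternative run. The change at 24 h and the change in R219S differed for 34 of the 40. The difference was -1.16 for CDK1, -0.79 for BIRC5 and -0.69 for MAD2L1, and it was 0.50 for CDC25C and 0.30 for UBE2S, with the same direction and call in every alternative run. The groups compared hold 2 libraries each and come from separate tables, so an experiment and its perturbation cannot be told apart.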

How the results depend on the processing

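No called change of the 40 genes reversed in any alternative run. At 1 h the count of genes called over the whole table fell from 3850 to 2058 in DESeq2 and 2563 with GC and length offsets, and ran from 2232 to 3422 when 1 library was left out. Of the 40, those higher at 1 h were 2 in DESeq2 and 9 with the offsets, and 2 to 4 when leaving out a library, and those lower were 0 with the offsets. In shFOXA1 leaving out a library gave 24 to 40 of the 40 lower, and 1713 to 6793 genes called in all. At 24 h it gave 0 to 1 higher, and a median between -0.76 and -0.72, and the offsets gave a median of -0.66. In R219S the offsets gave 2 higher, and leaving out a library gave 1 to 2 higher and a median between -0.32 and -0.26. With the replicate block 36 of the 40 were lower in shFOXA1, with CDCA3, NUSAP1 and TOP2A not called, and the other counts of the main comparisons were as given; the numbers were not taken as pairs, since deviations of same-numbered libraries correlated between -0.02 and 0.03.

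Of values not called, 14 of 32 turned sign in some alternative at 1 h, 2 of 2 at 24 h, 2 of 3 in R219S, 6 of 16 in the difference between 24 h and shFOXA1 and 1 of 6 in that between 24 h and R219S. Among them, at 1 h, were the 3 nearest to 0: KIF4A (0.00507 with no filter, 0.0287 with offsets, -0.0293 to 0.0284 leaving out a library), CCNA2 (0.00216, 0.0305, -0.0491 to 0.0432) and ANLN (0.0644 with offsets, -0.0362 to 0.0229). Leaving out a library also moved CENPA (-0.0986 to 0.0279) and UBE2S (-0.0528 to 0.179) at 24 h, and CCNB1 (-0.0874 to 0.026) and CENPE (-0.134 to 0.187) in R219S. Where this left 1 library in a group, that library was assumed to vary like the other group. CENPA and CDC25C had the fewest counts, which limits their precision.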
